A study of Mus musculus with 6 samples.

Results

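The flavin-containing monooxygenases were followed through chronic alcohol feeding in mouse liver with 9 oligonucleotide probes of 4 genes: Fmo1, Fmo2, Fmo4 and Fmo5. They were taken by gene name from the 41174 probes, covering 27962 distinct gene names, that each array held. The members were selected on these measurements: the family was chosen by its ratios of alcohol over control and its levels in the pools, so these values are given as a description, without a test.

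Flavin-containing monooxygenases sit in the membrane of the endoplasmic reticulum and use NADPH and bound FAD to add an oxygen atom to the nitrogen or sulfur of drugs, amines and thioethers. They work beside the cytochromes P450, but reduce their own flavin from NADPH and need no separate reductase. Fmo1 and Fmo5 are prominent in mouse liver, Fmo2 is best known from lung, and Fmo4 is the least studied of the members.

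Male 129/Sv mice aged 6 to 8 weeks at the start had first been kept on control liquid diet. The alcohol groups then drank a liquid diet with 4% ethanol, while the control groups had their calories matched with maltose dextran. Liver RNA of 6 mice per group was pooled after 1, 2 and 4 months, which gave 6 pools. Each alcohol pool was hybridized with the control pool of its month on 2 arrays with exchanged dyes, and the 6 arrays lay on 2 slides, one for 1 month and one for both later months. A pool is a single sample, so n = 1 pair of pools per month, and every SD given is the spread of 2 arrays carrying the same RNA; it does not measure variation between mice. In whole liver, fewer cells of a type and less RNA per cell cannot be told apart.

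Between 73.3% and 90.3% of probes were well above background in a channel, the scanner software's call that a spot exceeds its local background. The dye affected the ratios: the paired arrays correlated across probes at r = 0.16 at 1 month but at r = -0.31 at 2 months and -0.27 at 4 months, and the part of the log2 ratios that changed sign with the dye had an SD across probes of 0.28 and 0.33 at those months, against 0.21 and 0.25 for the average of a pair. Comparisons therefore rest on the average of a pair. All 9 hepatocyte markers, among them Alb and Apob, were well above background in every pool.

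The promoter of Fmo2 is shown because the ratios of this member were the largest. RefSeq also lists starts of Fmo4 and Fmo5, and an inner start of Fmo2, but these lie inside the annotated spans of the genes, where the bases before a start can belong to a longer transcript, so their windows are not shown. The line below gives the 250 bases before the outermost Fmo2 start in build GRCm38.p6, at chr1:162898759-162899008 on the minus strand, 5′ to 3′ on the strand of the gene.
Fmo2: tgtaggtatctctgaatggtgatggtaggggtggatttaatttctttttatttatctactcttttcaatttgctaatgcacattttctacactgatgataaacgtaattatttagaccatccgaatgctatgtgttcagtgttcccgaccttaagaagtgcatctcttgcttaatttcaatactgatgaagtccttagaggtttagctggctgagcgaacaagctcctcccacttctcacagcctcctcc

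None of 4 short motifs occurred on either strand of this window, so no base is in capitals. Among the windows not shown, those of the inner Fmo2 start and of Fmo4 held AGGTCA 1 time each, and that of Fmo5 held none of the motifs. The motifs were AGGTCA, the half-site of many nuclear receptors, found in 14% of the 32851 RefSeq windows of the same length, and GCGTG (28.2%), TGANTCA (6.75%) and TTCNNNGAA (7.02%), the letters linked to the aryl hydrocarbon receptor, AP-1 and STAT5. G and C made up 39.6% of the window, against a median of 52.4% over all windows. In the order of the chromosome, Fmo4, Fmo1, Fmo2 and Fmo6 follow one another on mouse chromosome 1, with Fmo9 farther along, whereas Fmo5 lies alone on chromosome 3.

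No member reached a 2-fold difference between alcohol and control in the average of a month. With the brightest probe of each gene, 0 of 4 were at least 2-fold higher or lower, and 0 of 4 reached 1.5-fold; at 1 month the Fmo4 probe did not pass the filter on dim spots and is counted by its unfiltered value. Over the probes that passed the filter on dim spots (29889, 33425 and 34214 at 1, 2 and 4 months), 0.157%, 0.162% and 0.351% were at least 2-fold higher and 0.097%, 0.111% and 0.275% at least 2-fold lower. By direction, 4, 3 and 3 of the 4 genes were higher on both arrays of the month, where 23.3%, 17.5% and 14.1% of those probes were. In log2 ratio, the member medians were 0.20, 0.22 and 0.23 over the months, while that of those probes was -0.00, 0.01 and -0.01. Fmo1 and Fmo2 were higher in alcohol on all 6 arrays, as were 1.49% of the 37922 probes clearly over background on at least 1 array.

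**Figure D1:**
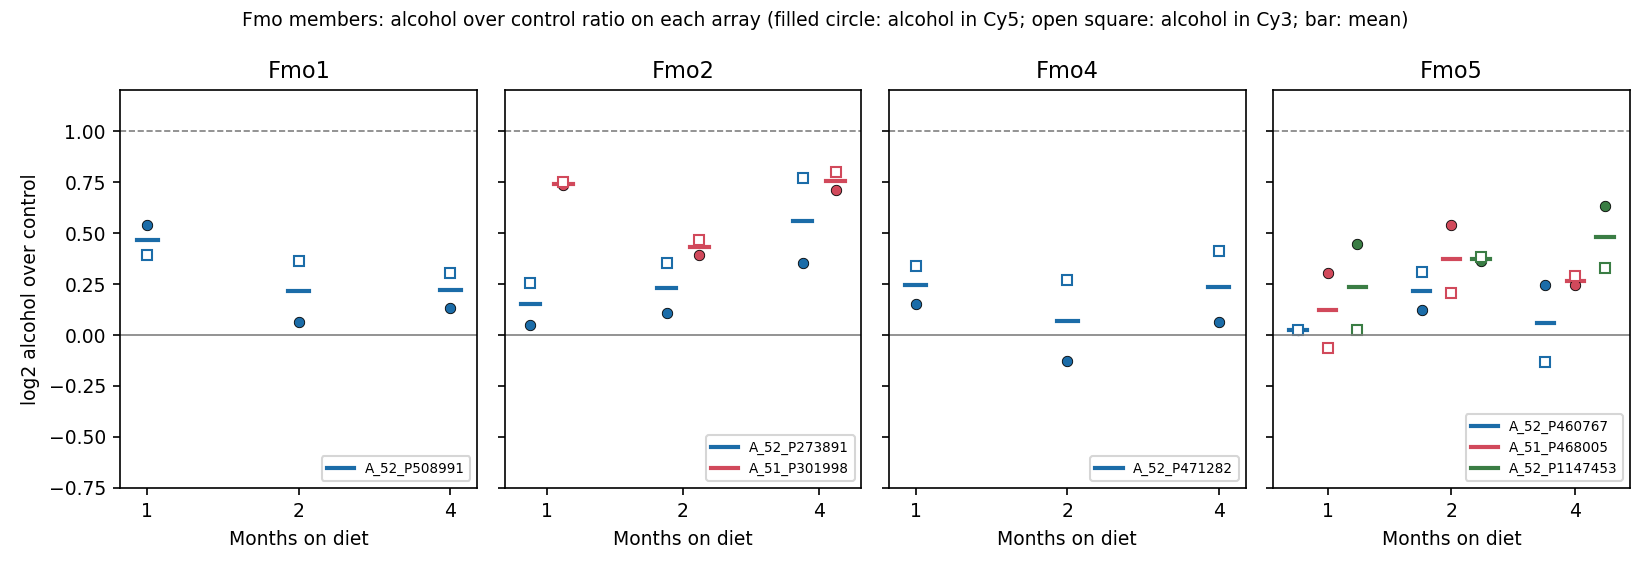
The log2 ratio of alcohol over control is plotted for the 7 member probes with a channel clearly over background at every month, with 1 panel per gene and colours for probes. Filled circles are arrays with alcohol in Cy5, open squares arrays with alcohol in Cy3, bars their mean and the dashed line 2-fold. Fmo1 and both Fmo2 probes lie above 0 on every array, and no point reaches 2-fold.

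Fmo2 had the largest ratios in the family, and its 2 bright probes differed in size though not in direction. The brighter one, A_52_P273891, read 0.05 with alcohol in Cy5 and 0.26 with alcohol in Cy3 at 1 month (log2 ratio), then 0.11 and 0.35 after 2 months, then 0.35 and 0.77 after 4 months. All 6 values were above 0, but the arrays of a pair stood well apart. Their means were 0.15 ± 0.15, 0.23 ± 0.17 and 0.56 ± 0.30 (SD of 2 arrays), or 1.11-, 1.17- and 1.48-fold higher in alcohol.

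The second Fmo2 probe, A_51_P301998, was designed to the same transcript and was higher in alcohol by 1.67-fold at 1 month, by 1.35-fold after 2 months and by 1.69-fold after 4. Its array values were 0.74 and 0.75, then 0.39 and 0.47, then 0.71 and 0.80 on the log2 scale. The paired arrays barely differed at any month, with SDs of 0.01, 0.05 and 0.06. This probe passed 1.5-fold at 1 and 4 months, which 0.455% and 1.58% of the filtered probes did, and at 2 months, where 0.709% did, it fell short. At 1 month the probes of Fmo2 therefore disagreed, at log2 0.15 against 0.74, a gap larger than either SD. The third, A_52_P1138659, came from a cDNA clone and stayed dim, below that background call, in both pools at 1 and 2 months. At 4 months it was well above background on both arrays in the alcohol pool and on neither in the control pool. It thus passed the filter only through alcohol, and its array ratios of 0.98 and 0.33 (log2) stood well apart. Taking the control pool at no less than the dimmest probe called well above background put alcohol 1.21-fold higher, on levels normalized between arrays. This bound leaves out the spread of the arrays, and the probe is no further evidence for Fmo2.

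Fmo1 was 1.38-fold higher in the alcohol pool at 1 month and 1.16-fold higher at both later months. On its bright probe, A_52_P508991, the arrays, alcohol in Cy5 first, gave 0.54 and 0.39 at 1 month, then 0.06 and 0.37 after 2 months and 0.13 and 0.31 after 4 (log2). All 6 arrays were on the alcohol side. The means were 0.47 ± 0.10, 0.21 ± 0.21 and 0.22 ± 0.12 (SD of 2 arrays), so that the difference at 2 months was as large as the spread of its arrays. A dim probe to a cDNA clone of this gene, A_52_P408245, was not well above background before 4 months and then gave -0.19 and -0.28, the opposite direction to the bright probe.

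Fmo5, which can also oxygenate ketones, had little difference between the pools on its brightest probe. A_52_P460767 read 0.02 on both arrays of 1 month, then 0.12 and 0.31 after 2 months and 0.25 and -0.13 after 4 (log2). The 4-month arrays thus disagreed in direction, and the mean of 0.06 ± 0.27 (SD of 2 arrays) was within their spread. The means at 1 and 2 months were 0.02 and 0.22 ± 0.13.

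The other Fmo5 probes gave somewhat larger ratios. A_51_P468005 averaged 0.12 ± 0.26 at 1 month, 0.37 ± 0.24 at 2 months and 0.27 ± 0.03 at 4 months (SD of 2 arrays), with 1 of its 6 arrays, at -0.06, below 0. A_52_P1147453, made to a cDNA clone, read 0.45 and 0.02 at 1 month, then 0.37 and 0.38 after 2 months and 0.64 and 0.33 after 4. It was the only Fmo5 probe higher on all 6 arrays, and its largest monthly mean was 1.40-fold (4 months).

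Fmo4 was measured by 1 dim probe, A_52_P471282, which was well above background on 1 of the 2 arrays of 1 month. Its log2 ratios were 0.15 and 0.34 at 1 month, then -0.13 and 0.27 after 2 months and 0.06 and 0.41 after 4. Alcohol was higher on 5 of 6 arrays. The mean at 1 month, 0.24 ± 0.13 (SD of 2 arrays), exceeded the spread of its arrays, though the probe was dim on one of them, while those of 0.07 ± 0.28 at 2 months and 0.24 ± 0.25 at 4 months did not.

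Counted by probe, 6, 7 and 9 of the 9 member probes passed the filter on dim spots at 1, 2 and 4 months. Higher on both arrays were 5, 6 and 7 of them, beside the 23.3%, 17.5% and 14.1% of all filtered probes given above. The 7 at 4 months include the clone-derived Fmo2 probe, which passed the filter only through its alcohol channel. The dim Fmo1 probe was lower on both arrays at 4 months. Of the 6 probes that exceeded background clearly in every channel of every array, 4 were higher in alcohol on all 6: the bright Fmo1 probe, both bright Fmo2 probes and the clone-derived Fmo5 probe. Probes of 1 gene read the same transcripts or parts of them and are not separate evidence.

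**Figure D2:**
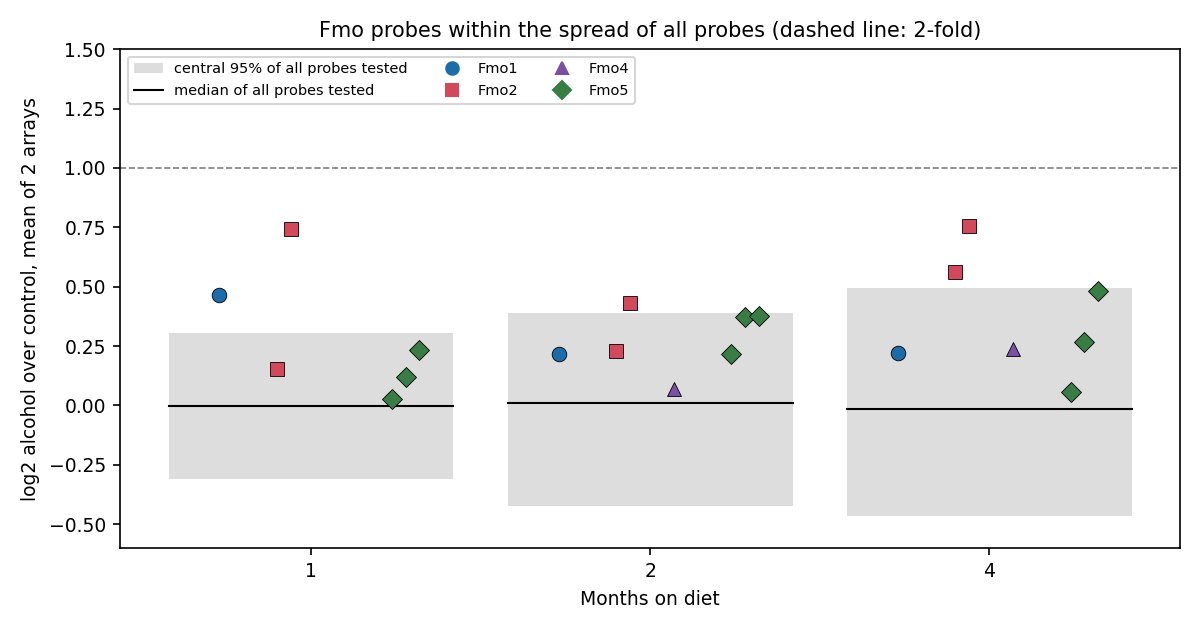
The mean log2 ratio of each month is plotted for member probes tested in at least 2 months, with the grey band holding the central 95% of all probes tested and the black line their median. At 4 months only the bright Fmo2 probes lie above the band, at 0.56 and 0.75, and no probe reaches the dashed 2-fold line at any month.

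Placed among the probes that passed the filter, the ratio of Fmo1 at 1 month was reached or passed by 0.739% of probes, and at 2 and 4 months by 9.27% and 11.7%. For the second Fmo2 probe these shares were 0.271%, 1.94% and 0.702% at 1, 2 and 4 months, and for the brightest Fmo2 probe 12.6%, 8.17% and 1.73%. The brightest Fmo5 probe stood near the middle at 1 month, with 41.2% of probes as high. These ranks describe where members that were chosen for their values lie.

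The level of each probe in each pool, taken as log2 signal relative to the 75th percentile of its channel, shows which pool differed. Levels of different probes are not comparable with one another. For Fmo2 the brightest probe read -1.38, -1.43 and -1.99 in the control pools of 1, 2 and 4 months and -1.23, -1.20 and -1.43 in the alcohol pools. On this scale the control pool of 4 months read lowest and the other 5 could not be separated from their neighbours within the SD. The size of its gap to the 1-month control pool, on the other slide, depended on the scaling, since median-scaled levels were 0.26 and 0.31, and on the second bright probe the 1-month control pool was the lower, at -3.31 against -3.10. On the slide of both later months, the level of Fmo2 at 4 months minus that at 2 months was thus -0.56 in control and -0.22 in alcohol. The second probe showed the same, at -0.59 in control and -0.26 in alcohol. The larger Fmo2 ratio at 4 months went with a lower control level, not with a higher alcohol level. The direction of all 4 differences was the same when channels were scaled on their median or normalized between arrays. With 1 pool per group and month, variation between pools of mice was not measured.

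**Figure D3:**
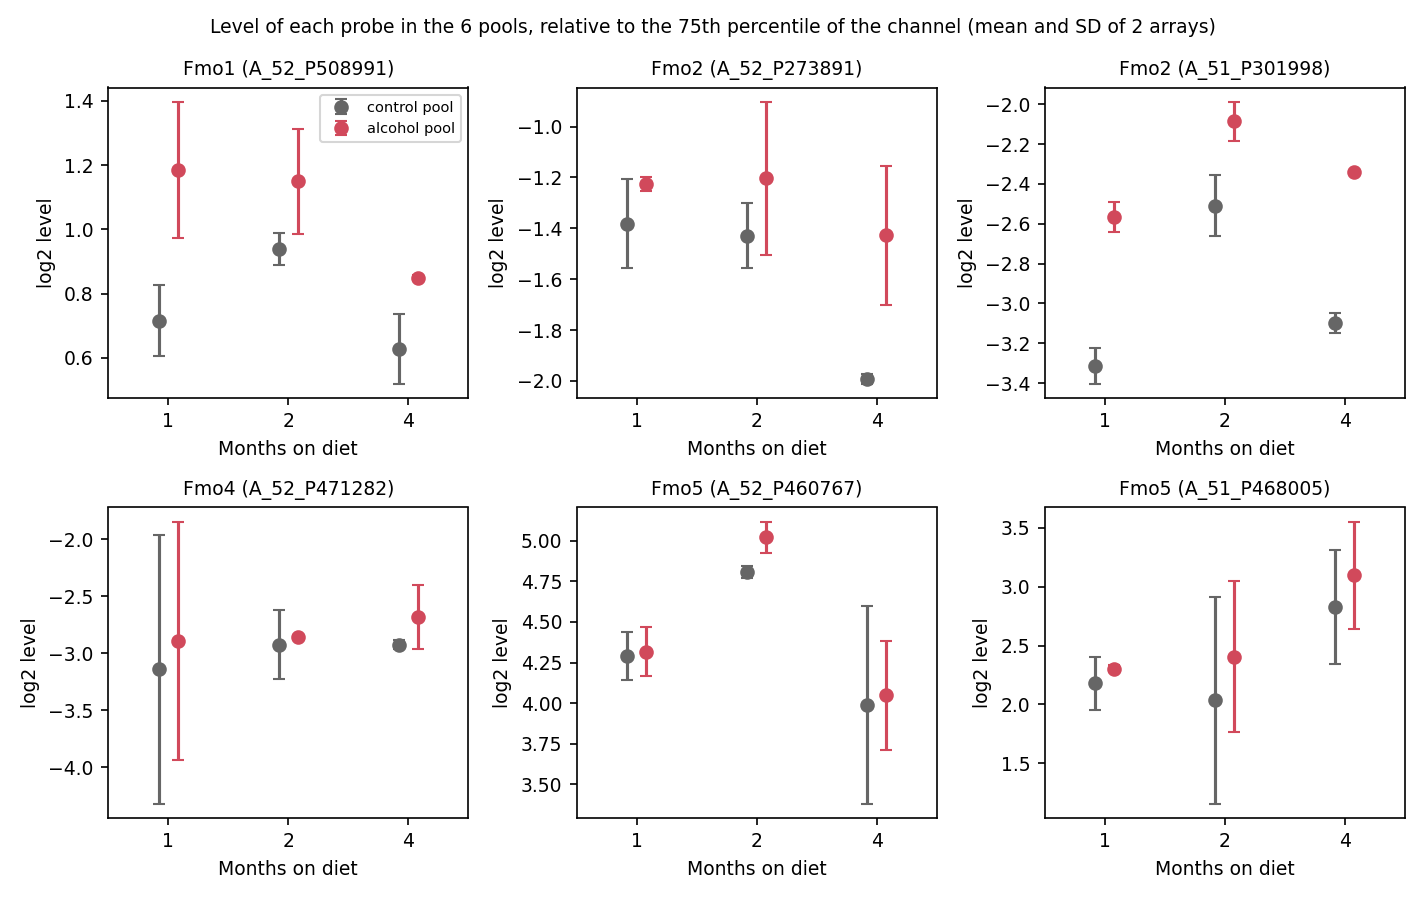
Levels of the 4 members, with both bright Fmo2 probes and the 2 brightest Fmo5 probes, are plotted for the 6 pools as log2 signal relative to the 75th percentile of the channel; points are means and bars the SD of 2 arrays. The Fmo2 control pool of 4 months lies below its other pools of the same slide, while the means of the 2 Fmo5 probes differ in opposite directions between 2 and 4 months. The 1-month arrays are on another slide, so slide and month cannot be told apart there.

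Fmo1 was lower in both pools at 4 than at 2 months, with differences of -0.31 in control and -0.30 in alcohol. Its levels were 0.72, 0.94 and 0.63 in control and 1.19, 1.15 and 0.85 in alcohol at 1, 2 and 4 months. The alcohol pool of each month stood above its own control pool, though alcohol at 4 months lay below control at 2 months.

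Fmo5 levels on the brightest probe were 4.29, 4.81 and 3.99 in control and 4.32, 5.02 and 4.05 in alcohol. On this scale both pools of 2 months stood highest, and the 4 pools of 1 and 4 months could not be separated within the SD. The gap to the 1-month pools, on the other slide, depended on the scaling. After normalization between arrays, control at 2 months read 16.95 against 16.91 for alcohol at 1 month. The difference of 4 minus 2 months then shrank from -0.82 to -0.30 in control and from -0.97 to -0.51 in alcohol. The second Fmo5 probe averaged the opposite way between 2 and 4 months, at 0.79 higher in control and 0.69 higher in alcohol. Its dyes disagreed, at -0.17 in Cy5 and 1.75 in Cy3 for control and at 1.47 and -0.09 for alcohol. The clone-derived Fmo5 probe was also higher at 4 months, by 0.41 in control and 0.52 in alcohol. No direction over time is therefore given for Fmo5. Fmo4 levels ran from -3.14 to -2.69 without a gap between neighbours beyond the SD, which at 1 month was over 1 in both pools.

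Fmo6 and Fmo9 were also measured, by 1 probe each. Fmo9 gave means of 0.04, 0.15 and 0.24 with a disagreement between the arrays at every month, and Fmo6 was not well above background on both arrays in any pool.

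For gene lists that the family's choice did not rest on, limma was fitted across the 3 monthly ratios, with the months as the only replicates. Of 37922 probes, 0% had an adjusted p below 0.05 (0 probes; 3028 at unadjusted p below 0.05, and 0 after adjustment when the variances were not moderated, where 2247 were below 0.05 before it). With normexp background correction and loess, 9 probes passed. No gene of any list below passed in the limma fit of the deposited ratios, so counts at 2-fold and medians describe them, beside the all-probe medians given above.

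Genes that supply NADPH and FAD, the cofactors of these enzymes, stayed near 0 as a list. None of the 9 was 2-fold different at any month, and the medians were 0.00, -0.05 and -0.00. The 10 other oxidases and microsomal partners had medians of 0.07, -0.07 and 0.12, also without a 2-fold gene. Singled out after its values were seen, the aldehyde oxidase Aox3 of this list read -0.72 ± 0.04, -0.90 ± 0.01 and -0.96 ± 0.21 (SD of 2 arrays). Only at the later months was it just short of 2-fold lower (limma adjusted p = 0.3455 across the months). The NADPH-forming malic enzyme Me1 of the cofactor list, singled out likewise, read -0.93 ± 0.03, 0.16 ± 0.56 and -0.53 ± 0.50. The 6 genes that make and use hypotaurine and taurine, hypotaurine being oxygenated by Fmo1, had medians of -0.04, 0.11 and -0.02 over the 5, 6 and 6 tested, none 2-fold.

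Of 10 targets of the drug receptors CAR and PXR, 8, 9 and 10 had a ratio above 0 at 1, 2 and 4 months. At least 2-fold higher were 2, 3 and 5 of them, with medians of 0.56, 0.79 and 1.07. Cyp2b10, the classical P450 target of CAR, led them with log2 ratios of 3.27, 2.77 and 4.03 (limma adjusted p = 0.221). Cyp2c29 reached 2.49, Cyp3a11 2.40 and Gadd45b 2.27 at 4 months. Of the 6 aryl hydrocarbon receptor targets none was 2-fold different, and their medians were 0.03, 0.00 and 0.13 over the 3, 4 and 5 that were above background.

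Genes that differ between male and female liver lay on opposite sides of 0 as lists. Of 12 female-predominant genes, 2, 5 and 7 were at least 2-fold higher at 1, 2 and 4 months, with medians of 0.84, 0.59 and 1.53 over the 9, 12 and 12 tested. Cyp2b13 read 3.40, 2.88 and 2.36, and Cyp2b9 2.73, 1.11 and 1.87. Cyp3a16 reached 2.44 and Cyp3a44 2.28 at 4 months. Of 9 male-predominant genes, 3, 2 and 5 were at least 2-fold lower, with medians of -0.89, -0.30 and -1.11. Hsd3b5, a steroid dehydrogenase of male liver, led them at -2.93, -2.04 and -4.83, Mup3 reached -2.23 at 4 months, Slco1a1 -1.75 at 1 month and Cyp7b1 -1.64 at 4 months. The members stayed below 2-fold in the same pools.

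Medians of some marker lists of other cell types lay away from 0 at 1 and 4 months, and single markers did so at 2 months too (Marco at 0.61, Alas2 at -0.75). At 1 month the bright Fmo1 probe stood at 0.47, and the brightest and second Fmo2 probes at 0.15 and 0.74. All 5 endothelial markers were then higher in alcohol (median 0.41, none 2-fold). So were all 5 Kupffer cell markers (median 0.23), with Adgre1 at 1.23 ± 0.74, Clec4f at 0.05 ± 0.19 and Marco at 0.01 ± 0.09 (SD of 2 arrays). All 3 red blood cell markers were higher too (median 1.51), with Hbb-bt at 1.97, Hba-a1 at 1.51 and Alas2 at 0.05 ± 0.09. At 2 months the 3 member probes stood, in the same order, at 0.21, 0.23 and 0.43, and the medians of the same lists were -0.03, -0.07 and -0.15. At 4 months the 3 member probes stood at 0.22, 0.56 and 0.75, and the medians were 0.20, 0.04 and 0.61. The red blood cell markers lay apart, with Hbb-bt at 0.63, Hba-a1 at 0.61 and Alas2, the heme synthesis enzyme of red cell precursors, at -2.00. The summed level of the endothelial list ran from 1.38 to 1.91 in alcohol pools and 1.32 to 1.52 in control pools, that of the Kupffer list from 4.09 to 4.57 and 3.98 to 4.51, and that of the red blood cell list from 5.43 to 6.44 and 4.79 to 5.86, on the log2 scale of the pool levels.

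At 4 months, when the bright Fmo2 probes stood at 0.56 and 0.75, all 14 pancreas acinar genes were higher in alcohol. Their median was 0.42, and Cela2a at 3.75, Pnliprp1 at 2.42 and Cpb1 at 2.17 were over 2-fold, whereas the medians at 1 and 2 months were -0.05 and 0.02 over the 12 and 13 tested. The summed level ran from 4.47 to 5.18 in alcohol pools and 4.55 to 4.84 in control pools. The 6 lung epithelium genes, lung being the tissue Fmo2 is known from, had medians of -0.01, 0.09 and -0.06 over the 3, 4 and 5 tested, with summed levels of 1.54 to 2.25 in alcohol and 1.54 to 2.26 in control. The 6 kidney tubule genes had medians of 0.03, 0.03 and -0.04 over 5 tested at each month, with summed levels of 2.26 to 3.21 and 2.24 to 3.25. Medians of the 5 cholangiocyte markers were -0.03, 0.07 and -0.00 and those of the 6 stellate cell markers 0.04, -0.07 and 0.17, none of them 2-fold. The 9 hepatocyte markers had medians of 0.08, -0.10 and 0.02 and summed levels of 7.21 to 8.00 in alcohol and 7.08 to 8.04 in control. As for the hepatocyte list, every endothelial, Kupffer, red blood cell, cholangiocyte and stellate cell marker was well above background in every pool, so none was at 0. Of the acinar, lung and kidney genes, 12 to 14, 3 to 5 and 5 were well above background in a pool. The part of these cells in the member ratios was not tested.

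The genes most like Fmo2, the member with the largest ratio on a brightest probe, were sought by the root mean square difference of the log2 ratios over the 6 arrays among 18002 other probes. Pcsk6, a proprotein convertase, came closest at 0.0841. Nup98, of the nuclear pore, followed at 0.0928 and Kcnk5, a potassium channel, at 0.0993, while the median probe differed by 0.455. Their closeness to the brightest Fmo2 probe at 4 months, at 0.55, 0.56 and 0.51, follows from this choice. The second Fmo2 probe was not used in the search.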

How the data were processed

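RNA pools of mouse liver were compared on 2-colour Agilent arrays. The authors deposited the output of Feature Extraction 9.1.1.1 for each array, with log10 ratios of Cy5 over Cy3, processed signal intensities already background-subtracted and dye-normalized, and other columns that flag spots as controls, outliers or well above background. A deposited table of log10 ratios lay within 0.02 (log2) of the scanner ratios for the 40929 probes with 1 spot and served as an alternative. The direction of each ratio was taken from the dyes in the labels.

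Ratios were turned to alcohol over control on the log2 scale, spots of a probe were averaged and control spots were left out. Gene names are those of the array design, and 22944 of 41174 probes received a current symbol through RefSeq accessions. A probe was counted at a month if at least 1 channel exceeded background clearly, by the software's call, on both arrays. Among probes of a gene the brightest is named first. Levels are log2 signals minus the 75th percentile of the channel. The 3 monthly ratios were fitted with limma 3.58.1 in R 4.3.3 (lmFit, eBayes, Benjamini-Hochberg adjustment over 37922 probes), tested on simulated data first. The rule for named genes took all members, the Fmo6 and Fmo9 genes, up to 4 genes per list that were at least 2-fold different in a month, and 3 genes closest to the leading member; further genes are named as examples. An older array name, Ela2, that RefSeq gives to neutrophil elastase was left out of the acinar list.

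The members, the 17 lists and the tests were chosen with earlier results of these data known. Alternatives covered the background correction, the filter, the fold threshold, the choice of probe, the centring, the scaling of channels and leaving out an array or month. Protein and probe sequences were not used here, and some items that the rule would name are not reported here.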

Additional observations from a re-analysis of the deposited data

How the results depend on the processing

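With 1 pair of pools per month, no alternative measures variation between mice, and dim probes (Fmo4 at 1 month, the clone-derived Fmo1 and Fmo2 probes) limit what their ratios show. Each ratio already pairs the alcohol pool with the control pool of its month, and limma was fitted on these pairs; the labels give no replicate numbers for a further block.

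The mean ratio of each member stayed above 0 at every month with normexp and loess, with the deposited table, after centring and with error weights. The mean over all probes of a gene gave -0.006 for Fmo1 at 4 months (0.22 for the bright probe), 0.45 for Fmo2 at 1 month and 0.13 for Fmo5 at 1 month, where normexp with loess gave 0.034. For Fmo5 at 4 months it gave 0.27 in place of 0.06. A single array turned the direction of Fmo4 at 2 months (-0.13 with alcohol in Cy5) and of Fmo5 at 4 months (-0.13 with alcohol in Cy3).

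Counts of probes 2-fold higher and lower were 47 and 29 in the first month's pair, 54 and 37 for 2 months, and 120 and 94 for 4 months. At 1.5-fold they were 136 and 132, 237 and 306, and 539 and 447. Without the filter on dim probes they became 95 and 79 at 2 months and 183 and 151 at 4 months. Asking for 2-fold on each array left 15 lower at 1 month, 27 and 17 for 2 months and 72 and 57 for 4 months. With normexp and loess, 20 were lower at 2 months and 76 higher at 4 months. Leaving out 1 array of a pair gave 54 to 57 higher and 28 to 47 lower at 1 month, 208 to 225 and 148 to 325 for 2 months and 252 to 768 and 268 to 372 for 4 months.

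The count of limma calls was 9 with normexp and loess, 6 after dropping each probe with a dim channel on any array, and 0 without any 1 month.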
